A study of Juglans regia with 15 samples.

Results

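The middle of walnut seed coat development was compared with its beginning and its end. The 9 libraries collected at 63, 91 and 119 days after pollination (DAP), called the middle stages here, were set against the 6 libraries collected at 35 and 147 DAP, called the ends. The libraries were chosen by their labelled stage, and together they are all 15 libraries of the series. All came from the endopleura, the thin brown skin around the kernel of Juglans regia, of the cultivar "Linzaoxiang". Every library pooled the endopleuras of 7 nuts, the labels name no treatment, and each of the 5 stages had 3 libraries. One cultivar was sampled, and whether the 3 libraries of a stage came from different trees is not given in the sources used here, so the p-values measure the spread between pools of nuts. The question was which transcripts rise and then fall, or fall and then rise, so that a comparison of the first stage with the last shows little of them.

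The endopleura is the seed coat, a maternal tissue that surrounds the growing embryo. In seeds generally, a coat first grows by division and expansion of its cells, then serves as the route by which sugars and other nutrients reach the embryo, and at maturity dries into a protective layer. The walnut seed coat is known for its condensed tannins and other phenolics, which are products of the flavonoid pathway.

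Expression was given as FPKM, a measure of fragments per gene that corrects for gene length and for sequencing depth. It was compared on the log2(FPKM + 1) scale, on which a difference of 1 is a factor of 2 for well expressed genes and a larger factor for genes of few FPKM. Of 39414 genes in the deposited table, 22310 reached 1 FPKM in 3 or more libraries and were tested with limma, a linear model that borrows information on the spread across genes. The number of reads per library is not given in the sources used here, and the relative depth of the libraries, read from their lowest values, ran from 0.873 to 1.16 of the median library. The 10 genes of highest FPKM held between 6.68% and 28.2% of a library's total. Across tested genes, libraries of 1 stage correlated with r between 0.964 and 0.992. Libraries of different middle stages correlated with r between 0.875 and 0.954, and libraries of 35 and 147 DAP with r between 0.605 and 0.648. A library of 147 DAP correlated with a middle library with r between 0.757 and 0.931, and a library of 35 DAP with r between 0.691 and 0.845.

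The label of the tissue was set beside marker genes. The anthocyanidin reductase JreChr09G12363 and the chalcone synthase JreChr02G10304, enzymes of tannin and flavonoid synthesis taken as seed coat markers, were above 1 FPKM in every library. The study also reports moderate and stable expression of JreChr09G12363 in the embryo. Its presence therefore does not separate seed coat from embryo. Their summed level was lowest at 35 DAP, between 119 and 147 FPKM, and highest at 147 DAP, between 1277 and 2146 FPKM. Markers of lignifying cells (7 genes, among them laccases and fasciclin-like proteins) summed to at most 4.67 FPKM in any library. Markers of green tissue (4 genes) summed to between 26.4 and 76.2 FPKM and overlapped between middle and ends.

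Transcripts of genes taken as embryo markers were abundant in these pools from 63 DAP on. The 6 embryo markers (2 glutelins, an oleosin, 2 DC-8 proteins and a late embryogenesis abundant protein, which store or protect reserves in seeds) summed to between 1.26 and 2.85 FPKM at 35 DAP. They summed to between 1790 and 6618 FPKM at 63 DAP, between 4996 and 10023 at 91 DAP, between 3667 and 19972 at 119 DAP and between 3907 and 6471 at 147 DAP. All 6 markers were at 1 FPKM or more in each library from 63 DAP on, and at 35 DAP 1 marker in replicate 3 reached that level. Replicate 2 of 119 DAP and replicate 3 of 63 DAP stood apart, with 19972 and 6618 FPKM against at most 6450 and 1977 in the other libraries of their stages. The same 119 DAP library had the lowest seed coat sum of its stage, 403 FPKM against 873 and 895. No embryo library was compared, so the tissue that the embryo marker transcripts came from was not tested. Their part in the results was not tested beyond the alternative fits given below. These took the storage level as a covariate, or left out the 119 and 63 DAP libraries that stood apart. In pooled tissue, fewer cells of a type and less RNA per cell cannot be told apart.

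**Figure D1:**
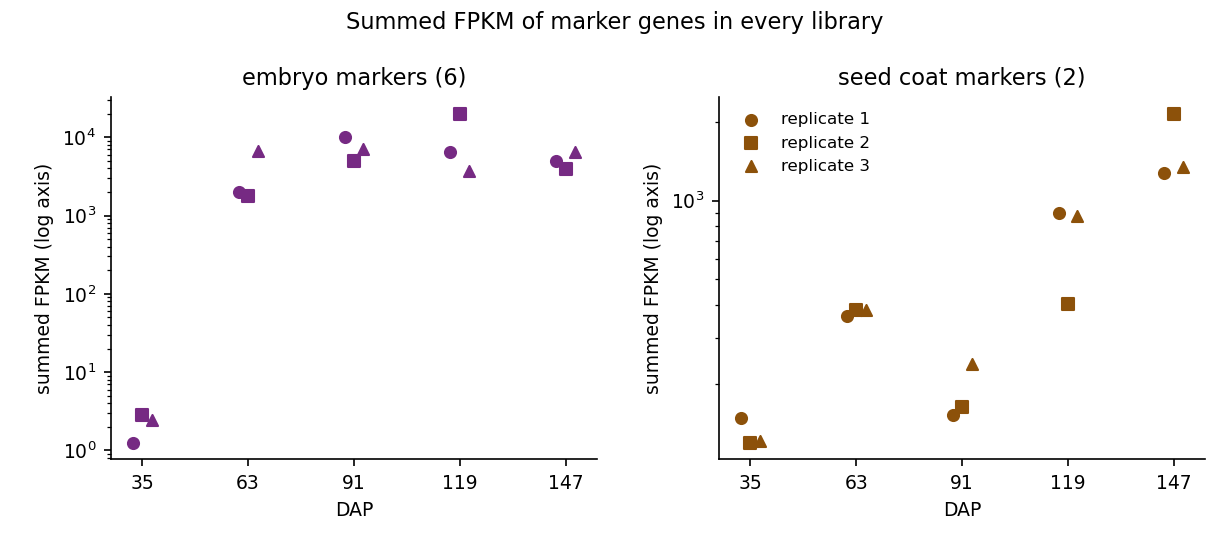
Summed FPKM of the 6 embryo markers (left) and the 2 seed coat markers (right) against DAP, on log axes, with 1 symbol per library. The embryo sum is between 1.26 and 2.85 FPKM in the libraries of 35 DAP and at 1790 FPKM or more in all later ones, with replicate 2 of 119 DAP highest, while the seed coat sum is highest at 147 DAP.

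Of the tested genes, 54.6% differed between middle and ends, and far fewer lay beyond both ends. The contrast of the mean of the 3 middle stages against the mean of the 2 ends called 5640 genes higher in the middle (25.3% of those tested) and 6535 lower (29.3%) at an adjusted p under 0.05. Which side held more genes depended on the processing, with 6665 higher and 6080 lower under quantile normalization, 4665 and 4021 with a mean of at least 5 FPKM, and 4685 and 7193 under TPM rescaling. A gene that changes between 35 and 63 DAP and then stays level can pass this contrast. The middle mean was therefore also set against each end on its own, and a gene was called above both ends, or below both ends, when both of these differences had the same sign and an adjusted p under 0.05. There were 1985 genes above both ends (8.90%) and 1417 below both ends (6.35%). Of the genes higher in the middle, 3655 (64.8%) were not above both ends, and of the genes lower in the middle, 5118 (78.3%) were not below both ends. Without the 119 DAP and 63 DAP libraries of high embryo sums, 2171 genes were above both ends and 1370 below, and 1924 and 1293 of them were genes called with all libraries. With the mean level of the 2 glutelins and the oleosin as a covariate in the fit, 286 genes were above both ends and 148 below. Because the 35 DAP libraries lay far from all others on this covariate, the median standard error of the middle against ends difference went from 0.12 to 0.54. The fit extends the spread within stages to 35 DAP. A call kept or lost in it therefore does not show which tissue a transcript came from.

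**Figure D2:**
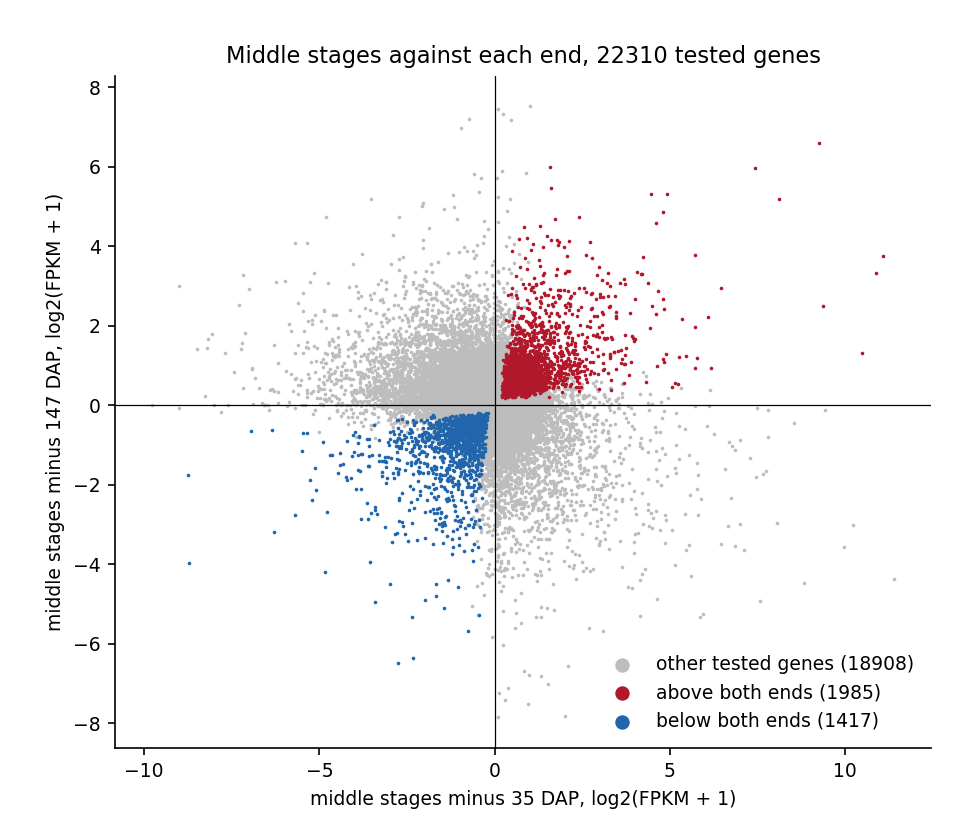
Estimated difference of the middle stages from 35 DAP (horizontal) and from 147 DAP (vertical) on the log2(FPKM + 1) scale, 1 point per tested gene. The 1985 genes above both ends fill the upper right and the 1417 genes below both ends the lower left, and the grey points are the other tested genes.

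Genes above both ends had a median difference from the ends of 0.85 on the log2(FPKM + 1) scale, with quartiles of 0.56 and 1.31, and genes below both ends had a median of -0.90, with quartiles of -1.40 and -0.59. These differences are the values that chose the genes and are given as a description. The median over all tested genes was -0.03. On each side by at least 4-fold, 83 genes were above and 44 below both ends. The median of the mean FPKM was 23.0 for genes above both ends, 11.6 for genes below and 12.5 for all tested genes. The 9 middle and the 6 end libraries did not overlap for 740 of the genes above both ends (37.3%) and for 577 of those below (40.7%). Over all tested genes, 748 (3.35%) had every middle library above every end library and 588 (2.64%) had every middle library below. Genes of both kinds lay on all 16 chromosomes, with 7.25% to 10.3% of the tested genes of a chromosome above both ends and 4.47% to 8.34% below.

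Among the genes beyond both ends, the extreme stage mean fell most often at 91 DAP. Of the genes above both ends, 621 (31.3%) had their highest stage mean at 63 DAP, 983 (49.5%) at 91 DAP and 381 (19.2%) at 119 DAP. Of the genes below both ends, 254 (17.9%) were lowest at 63 DAP, 912 (64.4%) at 91 DAP and 251 (17.7%) at 119 DAP. Each middle stage was also tested singly against both ends. Among the genes above both ends, 614 (30.9%) passed these tests at each of the 3 middle stages, 785 (39.5%) at 2 stages, 563 (28.4%) at 1 stage and 23 (1.16%) at no single stage. The counts below both ends were 434 (30.6%), 604 (42.6%), 352 (24.8%) and 27 (1.91%). Single libraries of 91 DAP took unequal parts. Replicates 1, 2 and 3 held the highest middle value of 9.82%, 16.1% and 20.5% of the genes above both ends. Among all tested genes the shares were 6.41%, 6.71% and 13.7%. Their shares of the lowest middle values were 22.4%, 19.1% and 20% of the genes below both ends, and 13.4%, 9.35% and 11.7% of all tested genes. The 119 DAP library with the highest embryo sum held the highest middle value of 100 genes above both ends (5.04%), and of 1877 among all tested genes (8.41%). It held the lowest middle value of 145 genes below both ends (10.2%), and of 5115 among all tested genes (22.9%), more than any other middle library.

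**Figure D3:**
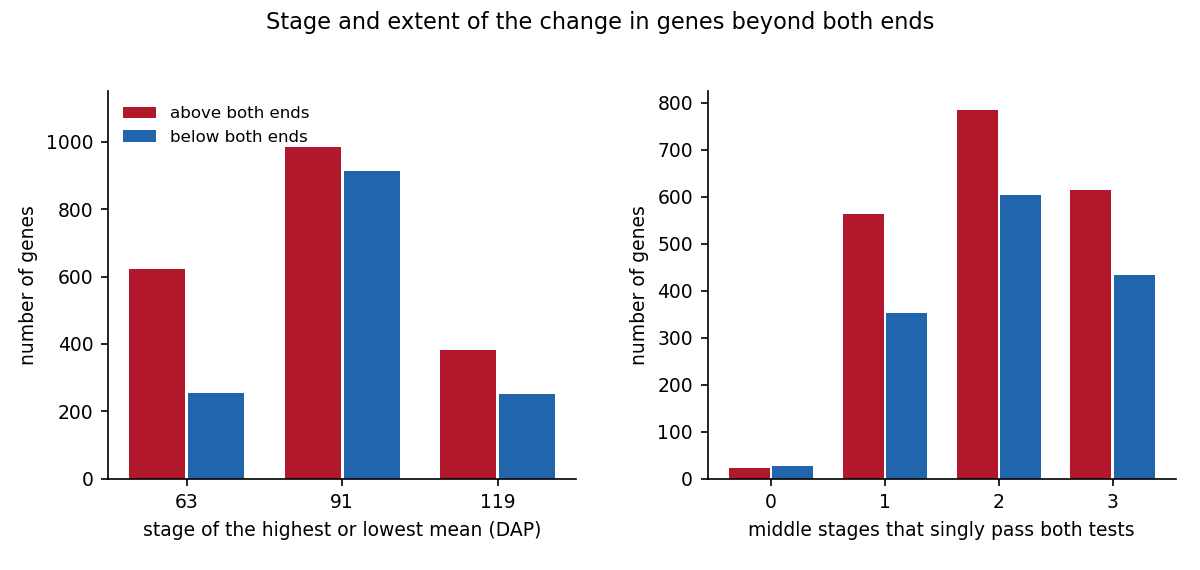
Number of genes above both ends (red) and below both ends (blue), by the middle stage of the highest or lowest mean (left) and by how many of the 3 middle stages passed the tests against both ends singly (right). The bars at 91 DAP are the tallest on the left, with 983 and 912 genes, and on the right 2 stages is the most frequent number, with 785 and 604 genes.

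The comparison of the first stage with the last, 147 against 35 DAP, called 5349 genes higher at 147 DAP (24.0%) and 9749 lower (43.7%). This split depends on the scaling between libraries. Of the genes called, 35.4% were higher at 147 DAP, against 50.7% with quantile normalization, 25% with TPM rescaling and 46.6% with median-ratio scaling. The comparison shares the 35 and 147 DAP libraries with the comparisons above. It did not call 7212 of the 22310 tested genes (32.3%). Of these 7212, 3259 (45.2%) differed between the middle stages and the ends, against 54.6% of all tested genes. Of the genes above both ends, 1188 (59.8%) were not called between the first and the last stage, 466 (23.5%) were higher at 147 DAP and 331 (16.7%) were lower. Of the genes below both ends, the first-to-last comparison did not call 737 (52.0%), called 260 (18.3%) higher at 147 DAP and called 420 (29.6%) lower. A gene that is not called need not be level, so a stricter set was formed. In it, the 147 minus 35 DAP difference was not called and its 95% interval lay inside -1 to 1, a condition that 6121 tested genes (27.4%) met. Above both ends and level from first to last in this sense were 1036 genes (4.64%), and 651 genes (2.92%) were below both ends and level. Membership of these sets depended on the scaling. Of the 1036, 573 (55.3%) were in the set under quantile normalization, 554 (53.5%) under TPM rescaling and 628 (60.6%) under median-ratio scaling. Of the 651, 341 (52.4%), 351 (53.9%) and 436 (67%) were. With 0.1 instead of 1 added to the FPKM, 832 of the 1036 (80.3%) and 535 of the 651 (82.2%) remained. Within these sets, 185 genes were higher in the middle by at least 1 on the log2 scale, and 117 were lower by as much. With the storage covariate no gene met the interval condition and both tests (0 genes on each side), with the median standard error of the first-to-last difference at 0.88 against 0.18.

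Among genes with a description in the gene tables of the study, the 8 with the largest differences above both ends and with no overlap of middle and end libraries were led by genes of seed reserves and lipid. The glutelin JreChr03G12612 (chromosome 3, 42496190 to 42498042), a seed storage protein of the cruciferin family in Arabidopsis thaliana, ran from 1001 to 10963 FPKM with a median of 3249 in the middle libraries. The end libraries held 0.131, 0.944 and 1.29 FPKM at 35 DAP and 112, 562 and 549 at 147 DAP. Every middle library lay above every end library, and within the ends 147 DAP was far above 35 DAP. The difference from the ends was 7.11 (standard error 0.49, adjusted p = 3.82e-08), and -0.71 with the storage covariate, of which this gene is a part. The fatty acid desaturase JreChr13G11197 (chromosome 13, 27107807 to 27108955), whose Arabidopsis homolog FAD2 makes linoleic acid from oleic acid, had 143, 111 and 162 FPKM at 63 DAP, 319, 202 and 123 at 91 DAP and 225, 591 and 111 at 119 DAP. Its levels were 8.13, 21.4 and 4.55 FPKM at 35 DAP and 11.3, 26.3 and 19.7 at 147 DAP. The 2 ends overlapped with each other, the middle libraries lay above both, and the 119 DAP library of the highest embryo sum was the highest for this gene. The difference was 3.75 (standard error 0.37, adjusted p = 1.26e-06), and with the storage covariate it was -0.89 (adjusted p = 0.716). The study names this gene JrFAD2 and reports that, of the tissues compared, the embryo expressed it most, with a peak between 91 and 119 DAP. Which tissue its transcripts in these pools came from was not tested. JreChr13G10860 (chromosome 13, 23177419 to 23177931) is described as a lecithin cholesterol acyltransferase, and its Arabidopsis homolog PDAT2 belongs to a family that forms triacylglycerol. It ran from 17.7 to 66.5 FPKM with a median of 22.5 in the middle and from 0.776 to 10.8 FPKM with a median of 5.74 at the ends, again with its highest value in that 119 DAP library, and differed by 2.29 (standard error 0.22, adjusted p = 7.70e-07). With the covariate the difference was 0.21 (adjusted p = 0.917).

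The other genes of this set have descriptions of several kinds. The MYB factor JreChr16G10330 (chromosome 16, 1544347 to 1545857), homolog of Arabidopsis MYB68, ran from 54.4 to 105 FPKM with a median of 85 in the middle and from 7.72 to 22.3 FPKM with a median of 10.8 at the ends, 6.76 times as high on average. No end library came near the middle ones, and the difference was 2.71 (standard error 0.16, adjusted p = 1.10e-08). It was 4.16 (adjusted p = 0.00651) with the storage covariate. The rhodanese-like protein JreChr05G11443 (chromosome 5, 29819341 to 29821589), of a sulfur-transferase domain family, had stage means of 1.40 ± 0.895, 49.6 ± 11.7, 35.8 ± 14, 25.3 ± 10.2 and 10.02 ± 1.90 FPKM (SD, n = 3 each) from 35 to 147 DAP. It was highest at 63 DAP, fell back without reaching its first level, and differed from the ends by 2.81 (standard error 0.22, adjusted p = 1.02e-07), or by 4.86 (adjusted p = 0.00895) with the covariate. JreChr07G11790 (chromosome 7, 31788888 to 31791421), described as a glycosyl hydrolase and homologous to the Arabidopsis trehalose-6-phosphate phosphatase TPPD, ran from 13.6 to 72.3 FPKM with a median of 30.6 in the middle and from 2.30 to 8.40 FPKM with a median of 5.87 at the ends. Its 91 DAP libraries were the highest group, and the difference was 2.33 (standard error 0.23, adjusted p = 1.37e-06). The wound induced protein JreChr03G10825 (chromosome 3, 18874858 to 18875127) ran from 36.6 to 218 FPKM with a median of 71.4 in the middle against 4.23 to 20.3 FPKM with a median of 8.85 at the ends, and the C2 domain protein JreChr03G12425 (chromosome 3, 40722326 to 40729444), of a membrane-binding domain family, ran from 9.71 to 33.3 FPKM with a median of 17 against 0.451 to 4.51 FPKM with a median of 2.45. Both had middle libraries that all lay above the ends, with differences of 2.89 ± 0.28 and 2.51 ± 0.20 (estimate ± standard error). The middle against ends differences of these last 3 genes, JreChr07G11790, JreChr03G10825 and JreChr03G12425, were not called with the storage covariate, whose standard errors are wider. Their estimates were then 1.80, 1.92 and 3.14, at adjusted p = 0.356, 0.418 and 0.0674, so that the estimate of JreChr03G12425 was not smaller than before.

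Below both ends, the described genes with the largest differences included a transporter-like protein, hormone and peptide signals and a homeobox factor. The nodulin-like gene JreChr13G10426 (chromosome 13, 16939058 to 16940815), of the major facilitator transporter family, had 54.2, 59.5 and 66.4 FPKM at 35 DAP and 12.7, 8.21 and 21.9 at 147 DAP. The middle libraries ran from 0.334 to 2.35 FPKM with a median of 1.33. It was nearly silent through the middle and came back in part at the end, with a difference of -3.74 (standard error 0.17, adjusted p = 8.35e-10) and -5.01 (adjusted p = 0.00454) with the storage covariate. The cytokinin dehydrogenase JreChr03G11941 (chromosome 3, 35871752 to 35875220), homolog of Arabidopsis CKX3, which breaks down the growth hormone cytokinin, had 5.02, 11.9 and 4.76 FPKM at 35 DAP and 8.53, 8.91 and 4.11 at 147 DAP. Its middle libraries ran from 0.0497 to 0.973 FPKM with a median of 0.270. The ends overlapped and the middle lay below 1 FPKM throughout, while the difference was -2.42 (standard error 0.20, adjusted p = 1.95e-07). The phytosulfokine precursor JreChr06G11595 (chromosome 6, 28549534 to 28549908), the source of a peptide growth signal, had 4.05, 3.71 and 4.30 FPKM at 35 DAP, and the middle ran from 0 to 1.98 FPKM with a median of 0.524. It reached 13.7, 9.24 and 14.1 FPKM at 147 DAP, above its first level, and the difference was -2.29 (standard error 0.14, adjusted p = 1.33e-08). With the covariate the estimates were -1.40 for JreChr03G11941 (adjusted p = 0.382) and -2.43 for JreChr06G11595 (adjusted p = 0.0504), the latter about as large as before with a wider standard error.

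The homeobox leucine zipper gene JreChr16G10676 (chromosome 16, 1974457 to 1975683), homolog of Arabidopsis ATHB5, a factor of abscisic acid responses, had 16.8, 11.1 and 18.6 FPKM at 35 DAP and 2.83, 1.25 and 1.41 at 147 DAP. It was listed at 0 in 5 of the 9 middle libraries, with a highest middle value of 0.944 FPKM. The difference was -2.51 (standard error 0.14, adjusted p = 6.11e-09). The alpha/beta hydrolase JreChr13G10767 (chromosome 13, 22008038 to 22029907) ran from 0 to 1.01 FPKM with a median of 0.257 in the middle and from 2.02 to 28.4 FPKM with a median of 11.1 at the ends, and the stress-induced protein JreChr03G12042 (chromosome 3, 36981351 to 36983608) ran from 0.179 to 1.33 FPKM with a median of 0.663 against 1.78 to 19.1 FPKM with a median of 10.5. Both were highest at 35 DAP and returned in part at 147 DAP, with differences of -3.05 ± 0.17 and -2.43 ± 0.15. JreChr13G10419 (chromosome 13, 16849295 to 16852345), annotated as an expressed protein, and JreChr10G12032 (chromosome 10, 7304846 to 7305466), with a domain of unknown function, differed by -1.89 ± 0.16 and -1.88 ± 0.24. The stage means of JreChr10G12032 were 97.9, 38.2, 28.3, 59 and 204 FPKM from 35 to 147 DAP, with its lowest value at 91 DAP. Of the 8 genes, JreChr13G10426 and JreChr03G12042 were still called lower in the middle with the storage covariate, without regard to the tests against each end. The estimate of JreChr10G12032 was then 0.13 (adjusted p = 0.954). The estimates of JreChr13G10767, JreChr16G10676 and JreChr13G10419 were then -1.94, -1.62 and -1.30, at adjusted p = 0.136, 0.141 and 0.308.

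**Figure D4:**
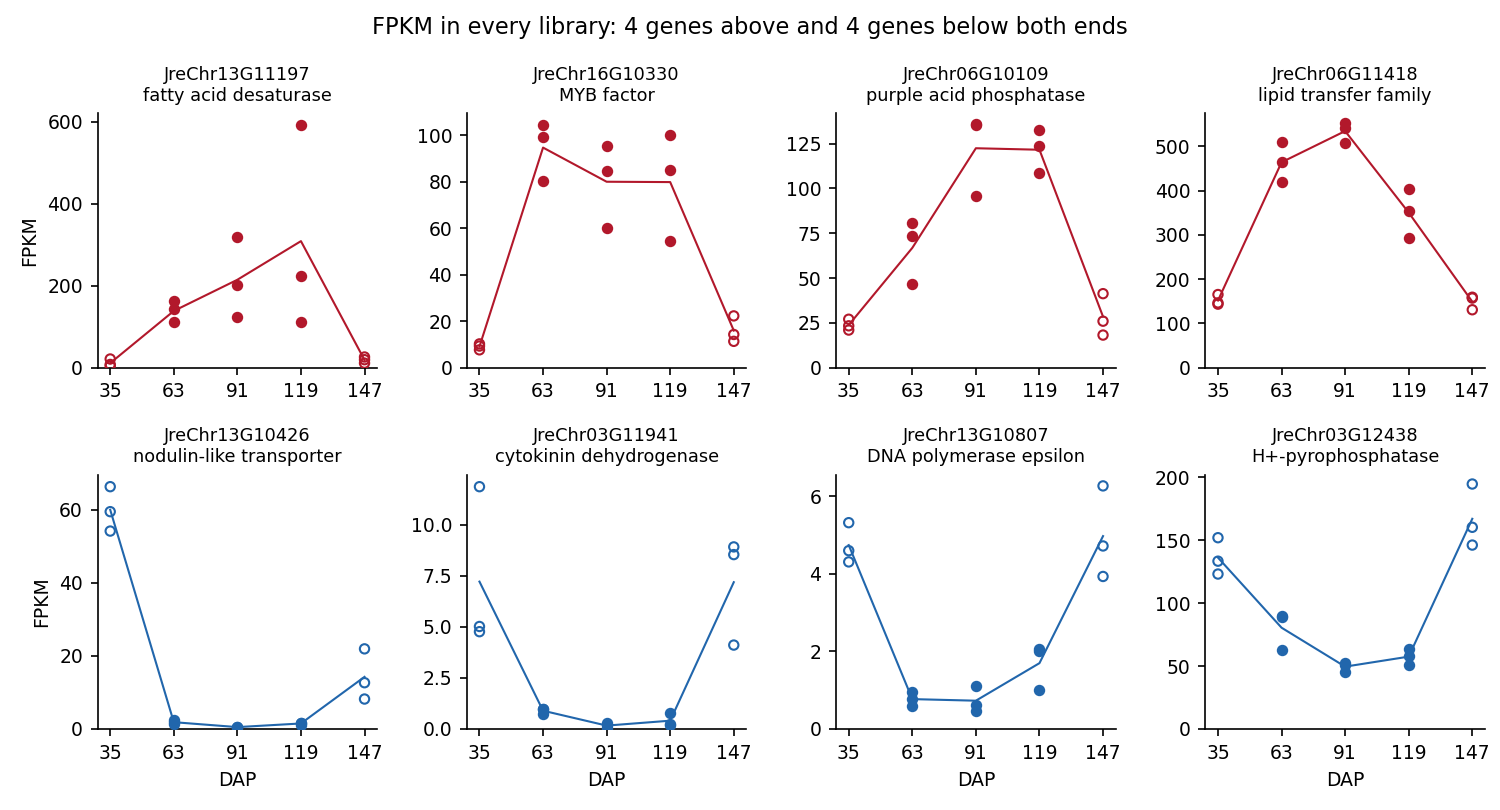
FPKM in every library (points, filled for the middle stages and open for the ends) and the stage means (lines) of 4 genes above both ends (red) and 4 genes below both ends (blue), each on its own axis from 0. In all 8 genes every middle library lies on one side of every end library, a condition by which they were chosen.

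In the set that was level between first and last stage, the described genes above both ends were again named by size among those whose middle and end libraries did not overlap, so that the absence of overlap is how they were chosen. The phosphatase JreChr06G10109 (chromosome 6, 12619752 to 12623646), homolog of the Arabidopsis purple acid phosphatase PAP3, had stage means of 23.8 ± 3.04, 66.8 ± 17.9, 122 ± 23.1, 122 ± 11.9 and 28.5 ± 11.8 FPKM (SD, n = 3 each) in order of stage. The first-to-last difference was 0.18 (95% interval -0.37 to 0.73), and the middle was higher by 1.92 (standard error 0.17, adjusted p = 3.33e-07). The lipid transfer family gene JreChr06G11418 (chromosome 6, 27332273 to 27333677), homolog of the Arabidopsis xylogen protein XYP1 of the cell surface, ran from 293 to 553 FPKM with a median of 464 in the middle and from 131 to 165 FPKM with a median of 152 at the ends. Its libraries at 35 and 147 DAP were nearly alike and its 91 DAP mean was highest, from 542, 553 and 508 FPKM. The first-to-last difference was -0.03 (95% interval -0.31 to 0.26) and the middle difference 1.55 (standard error 0.09, adjusted p = 5.39e-09), with 2.43 (adjusted p = 0.00279) under the storage covariate. The aminotransferase JreChr10G11525 (chromosome 10, 32217653 to 32222158), homolog of an Arabidopsis enzyme of beta-alanine metabolism, ran from 371 to 739.8 FPKM with a median of 568 in the middle and from 158 to 337 FPKM with a median of 246 at the ends, and differed by 1.19 (standard error 0.15, adjusted p = 1.00e-05). The protein disulfide isomerase family gene JreChr05G10554 (chromosome 5, 16091361 to 16094554), homolog of Arabidopsis nucleoredoxin NRX1, ran from 224 to 392 FPKM with a median of 307 against 129 to 159.9 FPKM with a median of 149.5, with a difference of 1.02 (standard error 0.12, adjusted p = 6.88e-06).

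A regulator and its neighbour followed the same course. The basic helix-loop-helix factor JreChr09G12373 (chromosome 9, 7559806 to 7561836), homolog of Arabidopsis ILR3, a regulator of iron balance, had 6.58, 6.75 and 7.34 FPKM at 35 DAP, 25.6, 28.5 and 22.5 at 63 DAP and 8.57, 7.33 and 11.5 at 147 DAP. The membrane protein JreChr09G12374 (chromosome 9, 7562603 to 7565295), the next gene on the chromosome, ran from 0.847 to 4.40 FPKM with a median of 1.51 in the middle and from 0.119 to 0.337 FPKM with a median of 0.277 at the ends. Both had their highest stage mean at 63 DAP, with differences of 1.27 ± 0.10 and 1.17 ± 0.09. The end libraries of JreChr09G12374 were under 1 FPKM, where the log2(FPKM + 1) scale shows little of a first-to-last change. With 0.1 instead of 1 added to the FPKM, its difference from the ends was 2.39. The D-type cyclin JreChr01G13580 (chromosome 1, 5377630 to 5379747), homolog of Arabidopsis CYCD2;1 at the start of the cell cycle, had stage means of 10.5 ± 0.834, 29.1 ± 2.49, 19 ± 2.97, 19.9 ± 5.88 and 8.44 ± 3.89 FPKM (SD, n = 3 each). It was highest at 63 DAP and differed by 1.18 (standard error 0.16, adjusted p = 2.85e-05). The ribosomal L18 family gene JreChr14G11647 (chromosome 14, 8244059 to 8244439) differed by 1.07 ± 0.09. Of these 8 level genes above both ends, JreChr06G11418, JreChr09G12374 and JreChr05G10554 were still called higher in the middle with the storage covariate. No gene kept its place in the level set in that fit. The estimates of the other 5 with the covariate were 1.86 for JreChr06G10109, 1.69 for JreChr09G12373, 2.24 for JreChr10G11525, 1.70 for JreChr01G13580 and 1.21 for JreChr14G11647, at adjusted p = 0.176, 0.0524, 0.0500045, 0.197 and 0.123. The standard errors with the covariate are wider, and why these 5 calls were lost was not tested.

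The level genes below both ends included JreChr03G11941, with a first-to-last difference of 0.04 (95% interval -0.62 to 0.70), and genes of transport, replication and membranes. The proton-pumping pyrophosphatase JreChr03G12438 (chromosome 3, 40832195 to 40838134), homolog of Arabidopsis AVP1, which acidifies the vacuole, was the most abundant of them. It had 133, 152 and 123 FPKM at 35 DAP, 51, 52.3 and 45.3 at 91 DAP and 195, 146 and 160.3 at 147 DAP. The middle ran from 45.3 to 89.7 FPKM with a median of 57.9, below every end library, with a difference of -1.29 (standard error 0.10, adjusted p = 8.95e-08) and -1.66 (adjusted p = 0.0459) with the covariate. The DNA polymerase epsilon subunit JreChr13G10807 (chromosome 13, 22450819 to 22492125), which copies DNA, had 5.31, 4.59 and 4.30 FPKM at 35 DAP and 3.93, 4.71 and 6.26 at 147 DAP, and its middle libraries ran from 0.452 to 2.06 FPKM with a median of 0.946. The ends overlapped, and the middle lay below them, with a difference of -1.54 (standard error 0.13, adjusted p = 3.16e-07), or -2.78 (adjusted p = 0.0123) with the covariate. JreChr13G10032 (chromosome 13, 10338310 to 10351363), described as an AGC kinase and homologous to the Arabidopsis blue light receptor phototropin 1, ran from 0.731 to 4.50 FPKM with a median of 1.33 in the middle and from 5.06 to 10.4 FPKM with a median of 9.53 at the ends. It was lowest at 119 DAP, and the difference was -1.70 (standard error 0.15, adjusted p = 4.90e-07).

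Of the remaining level genes below both ends, the potassium transporter JreChr05G10670 (chromosome 5, 18529939 to 18537673), homolog of Arabidopsis KUP1, and the dehydratase family gene JreChr16G10716 (chromosome 16, 2045606 to 2046915), homolog of Arabidopsis VEP1 of vein patterning, differed by -1.42 ± 0.12 and -1.33 ± 0.11. The ABC transporter JreChr12G11693 (chromosome 12, 5585922 to 5595760) differed by -1.08 ± 0.14, and the glycosyl transferase JreChr09G11585 (chromosome 9, 31506720 to 31512162), whose Arabidopsis homolog SQD2 makes the chloroplast sulfolipid, by -1.04 ± 0.19. Replicate 2 of 147 DAP stood out for JreChr09G11585, with 66 FPKM against 31 and 35.4. With the storage covariate, JreChr03G12438 and JreChr13G10807 were still called lower in the middle among these 8 genes, although no gene stayed in the level set. The estimates of JreChr13G10032, JreChr05G10670 and JreChr16G10716 were then -1.47, -1.61 and -0.997, at adjusted p = 0.246, 0.102 and 0.271, and those of JreChr12G11693 and JreChr09G11585 were -0.74 and -0.39, at adjusted p = 0.549 and 0.839.

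Over all tested genes, described or not, the 3 genes furthest above both ends were the glutelin JreChr03G12612 and 2 genes without a description. JreChr03G12609 (chromosome 3, 42478189 to 42481110), next to the glutelin JreChr03G12610, was listed at 0 in the 3 libraries of 35 DAP, ran from 196 to 1929 FPKM with a median of 571 in the middle and had 2.48, 9.66 and 5.89 FPKM at 147 DAP. JreChr04G11776 (chromosome 4, 36115866 to 36118039) ran from 989.6 to 13691 FPKM with a median of 2753 in the middle, with 0.227, 0.385 and 0.595 FPKM at 35 DAP and 135, 249 and 328 at 147 DAP. Both, like the glutelin JreChr03G12612, were highest in the 119 DAP library with the largest embryo sum. Their differences were 7.93 ± 0.40 and 7.42 ± 0.46, and with the storage covariate 2.09 (adjusted p = 0.233) and 0.09 (adjusted p = 0.959). The 3 genes furthest below both ends have no description. JreChr01G13607 (chromosome 1, 5672916 to 5673296) had 619, 1442 and 379 FPKM at 35 DAP, at most 1.29 in the middle and 4.78, 4.12 and 4.38 at 147 DAP, so that its return at the end was small. JreChr04G12153 (chromosome 4, 5609461 to 5612737) had 375, 356 and 417 FPKM at 35 DAP and 39.6, 24.7 and 84.9 at 147 DAP, with a middle median of 3.47 FPKM. JreChr06G11681 (chromosome 6, 29183612 to 29184694) was highest at the end, with 328, 187 and 181 FPKM at 147 DAP against 15.5, 19 and 13.3 at 35 DAP and a middle median of 0.840. The differences of the 3 genes were -5.24 ± 0.23, -4.74 ± 0.27 and -4.61 ± 0.16, and all were called lower in the middle with the covariate.

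Among genes that were level from first to last, the largest differences were also in genes without a description. JreChr11G10560 (chromosome 11, 21654283 to 21656852) was listed at 0 in the 3 libraries of 35 DAP, had 19.3, 9.53 and 15.5 FPKM at 63 DAP, 37.6, 33.2 and 41 at 91 DAP and 12, 8.54 and 11.4 at 119 DAP, and fell to 0.587, 0.578 and 0.160 at 147 DAP. JreChr02G10936 (chromosome 2, 22018230 to 22019525), the most abundant, ran from 265 to 860.0 FPKM with a median of 601 in the middle and from 48.9 to 115 FPKM with a median of 51.4 at the ends. JreChr12G10754 (chromosome 12, 19082054 to 19086305) ran from 3.54 to 15.1 FPKM with a median of 9.21 in the middle and from 0 to 0.265 FPKM with a median of 0.216 at the ends. The end libraries of JreChr11G10560 and JreChr12G10754 were under 1 FPKM, where differences on the log2(FPKM + 1) scale are small. In all 3 genes the middle libraries stood apart from the ends, with differences of 3.98 ± 0.14, 3.14 ± 0.18 and 3.11 ± 0.19. With the storage covariate these were 4.60, 3.95 and 4.20, at adjusted p = 0.00424, 0.0193 and 0.0164. Below both ends, JreChr16G11146 (chromosome 16, 6939597 to 6941616) ran from 1.37 to 8.17 FPKM with a median of 4.72 in the middle and from 20.8 to 69.3 FPKM with a median of 37 at the ends. JreChr16G11222 (chromosome 16, 7645155 to 7646180) was listed at 0 in the 3 libraries of 91 DAP and ran from 6.84 to 19 FPKM with a median of 8.60 at the ends. JreChr06G10917 (chromosome 6, 2354896 to 2355297) ran from 1.65 to 20.1 FPKM with a median of 6.15 against 25.2 to 48 FPKM with a median of 44.8. The differences were -3.09 ± 0.22, -2.82 ± 0.23 and -2.55 ± 0.17, and with the covariate the adjusted p was 0.235, 0.637 and 0.0151.

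Gene groups were then described by lists. Their members were taken from genes that the study's tables annotate, so a list is not a whole family, and near-identical neighbours can share reads. Each count below is to be read against all tested genes, of which 25.3% were higher and 29.3% lower in the middle, and against their median difference of -0.03. Of all tested genes, 8.90% were above and 6.35% below both ends, and 24.0% were higher and 43.7% lower at 147 than at 35 DAP. The embryo storage list had 4 of 6 members higher, 0 lower and a median of 2.36, but its members did not share a course. The glutelins JreChr03G12610 and JreChr03G12612 were above both ends, with 3736 and 5272 FPKM at 119 DAP against 749 and 407 at 147 DAP. The oleosin JreChr12G10222, which coats oil bodies, and the late embryogenesis abundant gene JreChr01G10579 kept climbing in stage means, to 1050.5 and 393 FPKM at 147 DAP. Their 35 DAP libraries were at or under 0.920 FPKM, and both were called higher in the middle, by 3.05 ± 0.23 and 1.66 ± 0.25, and lower in the middle than at 147 DAP. The DC-8 genes JreChr01G10577 and JreChr01G12905 reached 2478 and 52.4 FPKM at 147 DAP and were not called, with differences of 0.28 (standard error 0.30, adjusted p = 0.449) and 0.30 (standard error 0.22, adjusted p = 0.27). With a pseudocount of 0.1 both were called higher, by 1.74 and 1.43, and without the 119 DAP stage their estimates were -0.63 and -0.67.

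The hormone list (11 of 16 members tested) had 4 members higher and 2 lower, of which 2 were above and 1 below both ends, with a median of 0.17. The ethylene receptor JreChr02G10909, homolog of Arabidopsis ETR2, had stage means of 45.3 ± 2.29, 159 ± 32.4, 118 ± 22, 60.4 ± 16.1 and 36.4 ± 5.35 FPKM (SD, n = 3 each). It was highest at 63 DAP and level from first to last, with a difference of 1.32 (standard error 0.13, adjusted p = 1.17e-06), and 1 library of 119 DAP reached down to the ends. JreChr13G10514 and JreChr13G10532 are described as gibberellin oxidases, but their Arabidopsis homolog DAO1 oxidizes auxin. JreChr13G10514 ran from 31.1 to 58.2 FPKM with a median of 46.3 in the middle and from 14.2 to 26.1 FPKM with a median of 21.6 at the ends, and was above both by 1.08 (standard error 0.10, adjusted p = 4.96e-07). JreChr13G10532 was higher by 0.44 ± 0.08, with 147 DAP not called apart from the middle (adjusted p = 0.507). The auxin response factor JreChr14G10108 was lower, with a difference of -0.36 (standard error 0.14, adjusted p = 0.0389). Its call was lost in 9 of the 15 fits that left out 1 library, with a highest adjusted p of 0.114 without replicate 3 of 147 DAP, and with quantile normalization, at adjusted p = 0.197. Without the 63 DAP or the 91 DAP stage, adjusted p = 0.167 and 0.0569. JreChr03G11941, described above, was the hormone gene below both ends.

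The lipid list (20 of 29 members tested) had 7 members higher and 7 lower, with 4 above and 3 below both ends and a median of -0.19. The desaturase JreChr13G11197 and the lipid transfer gene JreChr06G11418 were above both ends, as were 2 GDSL lipases. All 3 tested glycerol-3-phosphate acyltransferases were below both ends. The 2 described here are homologs of Arabidopsis GPAT6, which serves the synthesis of cutin, the polyester of the plant surface. JreChr09G11569 had 23.9, 24.1 and 25.9 FPKM at 35 DAP, 6.23, 9.64 and 3.50 at 63 DAP and 4.34, 3.03 and 3.98 at 147 DAP, with 91 and 119 DAP libraries between 0.181 and 1.03. JreChr09G11589 had 24.4, 25.3 and 30.2 FPKM at 35 DAP and 5.71, 6.48 and 5.23 at 147 DAP, with a middle median of 2.89. In both, the 63 DAP libraries overlapped with those of 147 DAP, and the return at the end was partial, with differences of -2.09 ± 0.18 and -1.65 ± 0.14. The lipid transfer gene JreChr03G12410 showed the other shape, a step down after 35 DAP. It had 210.1, 179.9 and 276 FPKM at 35 DAP and at most 2.76 in any library from 91 DAP on, and was called lower in the middle, with a difference of -2.97 ± 0.22, without being below 147 DAP (adjusted p = 0.215).

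Genes of sugar and of transport across membranes split likewise. In the sugar and starch list (10 of 15 tested), 4 members were higher and 3 lower, with 1 above and 2 below both ends and a median of 0.18. The starch synthase JreChr12G10791, homolog of Arabidopsis GBSS1, which makes amylose, had 30.6, 35.9 and 24.5 FPKM at 35 DAP, 139, 138 and 145 at 63 DAP, 33.4, 39.8 and 50.5 at 91 DAP and 5.48, 10.3 and 7.06 at 147 DAP. The 63 DAP libraries stood far above all others, while those of 91 DAP overlapped with 35 DAP, and the difference was 2.02 (standard error 0.15, adjusted p = 6.96e-08). The sucrose synthases JreChr07G10958 and JreChr07G10968, homologs of Arabidopsis SUS3 that split sucrose, were below both ends. They had middle medians of 23.7 and 24.9 FPKM against end medians of 47.6 and 48, with differences of -0.94 ± 0.09 and -0.95 ± 0.08. Their values were close in every library, and as neighbouring copies they may share reads. The sugar efflux gene JreChr05G12917, homolog of Arabidopsis SWEET15 that feeds the embryo, rose from 20.1, 51 and 13.1 FPKM at 35 DAP to 747, 686 and 369 at 63 DAP and had 851, 716 and 524 at 147 DAP. It was higher in the middle by 2.57 ± 0.24 and not called apart from 147 DAP (adjusted p = 0.638).

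In the membrane transport list (12 of 20 tested), 4 members were higher and 5 lower, with 1 above and 1 below both ends and a median of -0.09. The aquaporin JreChr10G10281, homolog of Arabidopsis NIP1;2, had 288, 222 and 128 FPKM at 63 DAP, 860.0, 625 and 79.4 at 91 DAP and 177, 196 and 106 at 119 DAP. Replicate 3 of 91 DAP fell among the 35 DAP libraries (59.7, 99.9 and 68 FPKM), and 147 DAP was lower still, at 38.4, 25.3 and 23.8. The difference was 2.24 (standard error 0.42, adjusted p = 0.000414). The MATE efflux gene JreChr05G12222, homolog of an Arabidopsis flavonoid transporter, had stage means of 4.43 ± 1.26, 8.43 ± 1.20 and 0.202 ± 0.237 FPKM (SD, n = 3 each) at 35, 63 and 147 DAP. It was higher in the middle, by 1.05 ± 0.23, against a low last stage, and was not called against 35 DAP (adjusted p = 0.93). Without the 63 DAP stage it was not called (0.63, adjusted p = 0.0684). The ABC transporter JreChr12G11693 was the member below both ends.

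The transcription factor list (73 of 122 tested) had 17 members higher and 22 lower, close to the shares of all tested genes, with 8 above and 3 below both ends and a median of 0.06. By family, 3 MYB factors, 2 NAC factors, 1 WRKY, 1 bHLH and 1 homeobox factor were above both ends, and 3 homeobox factors were below. Of 7 tested NAC factors 4 were higher and 0 were lower, and all 6 tested bZIP factors were lower, with 0 of them below both ends. The NAC factor JreChr12G11748, homolog of Arabidopsis ANAC100, had 4.28, 6.20 and 3.68 FPKM at 35 DAP, 39.7, 35.5 and 30.1 at 63 DAP, 93.9, 101 and 85.9 at 91 DAP and 95.4, 95.1 and 105 at 119 DAP. At 147 DAP it had 25.5, 33.9 and 31.5 FPKM, within reach of the 63 DAP libraries and below those of 91 and 119 DAP, and the difference was 2.39 (standard error 0.10, adjusted p = 4.30e-10). It was 2.43 (adjusted p = 0.0152) with the storage covariate. The bHLH factor JreChr11G10834, homolog of Arabidopsis bHLH71, had 95.1, 106 and 99.9 FPKM at 35 DAP and at most 9.37 afterwards, and its stage mean was lowest at 147 DAP. It was called lower in the middle, with a difference of -1.65 ± 0.21, although the middle lay above 147 DAP. The bZIP factor JreChr14G11483, homolog of Arabidopsis bZIP34, had 6.72, 10.3 and 5.54 FPKM at 35 DAP and at most 0.0888 in any later library. Both are steps after the first stage rather than dips.

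Most of the tested cell division and cell wall genes were lower at 147 than at 35 DAP, against 43.7% of all tested genes. Few lay beyond both ends, as among all tested genes, of which 8.90% were above and 6.35% below. Of the cell division list (19 of 23 tested), 2 were higher and 10 lower, with a median of -0.83, but 1 was above and 1 below both ends, and 15 were lower at 147 than at 35 DAP. The 2 genes beyond both ends, JreChr01G13580 and JreChr13G10807, are described above. The kinesins JreChr09G12371 and JreChr13G10468, motor proteins that move along microtubules, had 16.5, 12.7 and 14.1 and 12.6, 12 and 11.4 FPKM at 35 DAP and at most 0.335 and 0.210 from 119 DAP on. The cyclins JreChr06G11540 and JreChr06G11603, near-identical homologs of Arabidopsis CYCD1;1 whose reads may be split between them, had 11.1, 13 and 11.4 and 11, 11.8 and 12 FPKM at 35 DAP. They were at or under 1.31 FPKM in every later library. The wall loosening and pectin list (6 of 12 tested) had 1 member higher and 4 lower, with a median of -0.86 and 0 beyond both ends, and 5 of the 6 were lower at 147 than at 35 DAP. The expansin JreChr14G11403, which loosens walls in growing cells, had 12.8, 15.1 and 10.6 FPKM at 35 DAP and at most 0.675 later, and the pectinesterase JreChr09G12425 had 15.3, 11.7 and 11.4 and at most 3.995. The beta-expansin JreChr13G11349 was listed at 0 in the libraries of 35, 91 and 119 DAP and had 0.237, 0.201 and 0.299 FPKM at 63 DAP and 5.61, 3.90 and 3.65 at 147 DAP, and it was lower in the middle, with a difference of -1.10 ± 0.08.

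**Figure D5:**
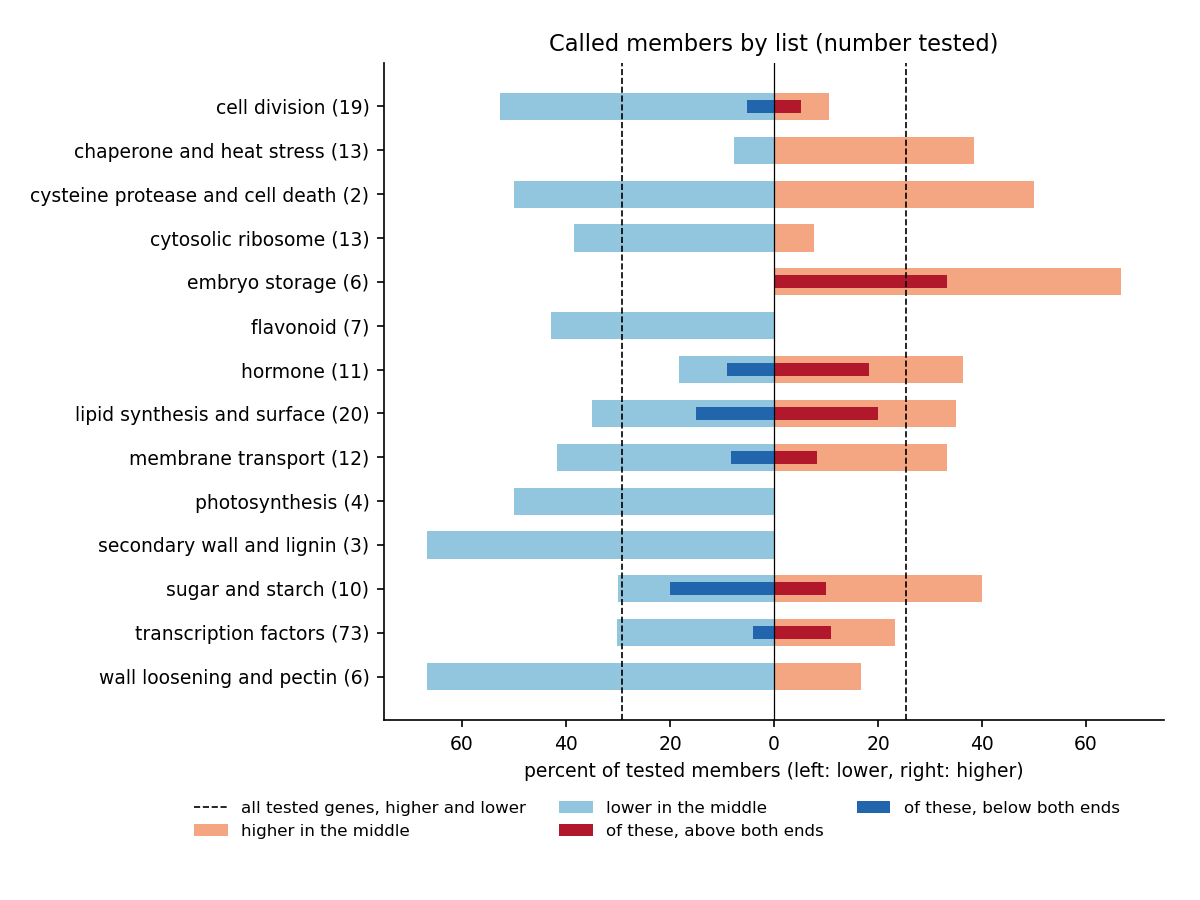
Percent of the tested members of each of 14 lists that were higher (right) or lower (left) in the middle stages, with narrow bars for those above or below both ends and the number tested in brackets. The dashed lines mark the 25.3% higher and 29.3% lower of all tested genes. Several bars reach past the line for lower genes. Those of wall loosening and pectin (4 of 6) and of secondary wall and lignin (2 of 3) reach furthest. The cell division bar (10 of 19) also reaches past it, and its narrow bars are of 1 gene each. The embryo storage bar (4 of 6) reaches furthest past the line for higher genes. No line is drawn for the 8.90% above and 6.35% below both ends among all tested genes.

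The flavonoid list (7 of 12 tested) had 0 members higher and 3 lower, 0 beyond both ends and a median of -0.27, and 5 of the 7 were higher at 147 than at 35 DAP. JreChr09G12363, the anthocyanidin reductase of tannin synthesis, had middle libraries between 102.8 and 344 FPKM and end libraries between 71.0 and 1058. Within the middle, 91 DAP (103, 110.2 and 109 FPKM) lay below 63 DAP (194, 187 and 189), a dip inside the overall climb, and the middle was lower than the ends, with a difference of -0.46 (standard error 0.14, adjusted p = 0.0137). Without the 91 DAP stage the difference was -0.09 (adjusted p = 0.673). The chalcone synthase JreChr02G10304, the entry enzyme of the pathway, had the same dip, with 169, 196 and 195 FPKM at 63 DAP and 49.4, 52.3 and 129 at 91 DAP. Its difference of -0.21 (standard error 0.24, adjusted p = 0.501) was not called, and it was 0.45 without the 91 DAP stage. JreChr13G10907, described as a flavonol synthase but homologous to the Arabidopsis coumarin enzyme F6'H1, was lower, with a difference of -0.69 ± 0.14. JreChr11G10794, described as a dihydroflavonol reductase, was lower, with a difference of -0.57 ± 0.20 (adjusted p = 0.0278), a call lost in 5 of the 15 fits that left out 1 library, with a highest adjusted p of 0.0619 without replicate 2 of 35 DAP, and also under quantile normalization (-0.40, adjusted p = 0.105). Without the 91 DAP stage the estimate of JreChr11G10794 was -0.12 (adjusted p = 0.654). The similar gene JreChr11G10846 (0.11 ± 0.12), the dioxygenase JreChr03G12442 (-0.27 ± 0.25) and the glucosyltransferase JreChr15G10826 (-0.26 ± 0.11) were not called, although JreChr15G10826 lay near the threshold, with adjusted p = 0.0548. It was called lower with the replicate block (adjusted p = 0.0209), with TPM rescaling (0.0301), with no filter (0.0471), without the variance trend (0.0478) and in 3 of the 15 fits that left out 1 library.

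The 5 remaining lists had no member beyond both ends, against 8.90% above and 6.35% below of all tested genes. Of the photosynthesis list (4 of 5 tested) 2 were lower and 0 higher, with a median of -0.29, among them the chlorophyll a/b binding gene JreChr10G10089 (-0.60 ± 0.13) and the chlorophyll synthesis gene JreChr12G11604 (-0.35 ± 0.09), both highest at 35 DAP. Of the secondary wall and lignin list, 3 of 24 members were tested and 2 were lower, the peroxidase JreChr16G10373 and the laccase JreChr01G13033, which were at or under 2.40 FPKM in every library. Of the cytosolic ribosome list (13 of 16 tested), 1 was higher and 5 lower, with a median of -0.18. The chaperone list (13 of 19 tested) had 5 higher and 1 lower, with a median of -0.01. Its heat shock gene JreChr13G10556 (0.73 ± 0.27, adjusted p = 0.0369) lost its call in 9 of the 15 fits that left out 1 library, with a highest adjusted p of 0.0985 without replicate 1 of 147 DAP. The heat stress factor JreChr10G10308, homolog of Arabidopsis HSFA1D, was higher by 0.65 ± 0.16. Without the 63 DAP stage JreChr13G10556 was at 0.36 (adjusted p = 0.344), and without the 91 DAP stage JreChr10G10308 was at 0.46 (adjusted p = 0.0675). Without the 119 DAP stage JreChr12G11604 was at -0.12 (adjusted p = 0.297) and the ribosomal protein gene JreChr13G10666 at -0.28 (adjusted p = 0.103). Of the 2 tested cysteine proteases, the vacuolar processing enzyme JreChr16G10269, which matures vacuolar proteins, was higher by 0.53 ± 0.12 and the oryzain-like JreChr16G10763 lower, with a difference of -0.51 ± 0.11. The ribosomal protein genes JreChr03G12002 and JreChr13G10666 differed by 0.62 ± 0.15 and -0.39 ± 0.12. Of the 47 called list members with values in these paragraphs, 11 were still called with the storage covariate. Among the 47 are the glutelins JreChr03G12610 and JreChr03G12612 and the oleosin JreChr12G10222. These genes form the covariate, so the loss of their calls was largely fixed in advance.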

How the data were processed

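Total RNA of walnut endopleura was sequenced by the authors on an Illumina NovaSeq instrument. Per the submitters' processing notes, HISAT2 (version 2.1.0) and StringTie (version 1.3.5) were used, and the deposited FPKM values per gene, on the authors' own Juglans regia genome, were taken as given. One table held the 15 libraries (5 stages, 3 libraries each). Coordinates are those of the deposited table, on that genome. Descriptions came from the supplementary gene tables of the study (2766 genes, 1730 of them tested), so described genes are not a sample of the genome.

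FPKM were analysed as log2(FPKM + 1) for the 22310 of 39414 genes that reached 1 FPKM in 3 or more libraries. limma 3.58.1 in R 4.3.3 was fitted with 1 coefficient per stage, all 15 libraries and a mean-variance trend, with moderated tests and Benjamini-Hochberg adjustment over all tested genes. Every adjusted p in the text is from this fit or from the same fit under a named alternative, is two-sided, and was called under 0.05. Estimates are given ± standard error, and stage means ± SD. The script was tested on simulated data. Named genes were, within each class, the described genes with the largest differences whose middle and end libraries did not overlap (8 genes per class), the 3 largest of any kind, and 2 to 7 members of each list. The libraries, gene lists and classes were chosen with earlier results of these data known. Replicate numbers were not treated as pairs in the main fit. The number of reads is not given in the sources used here, so no counting interval is given. Alternatives were the pseudocount, normalization, filters, the prior, a replicate block, an embryo storage covariate, and leaving out stages or libraries.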

Additional observations from a re-analysis of the deposited data

How the results depend on the processing

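Counts of genes are given in the order higher in the middle, lower in the middle, above both ends, below both ends, above and level from first to last, below and level from first to last, and called from first to last. They were 5640, 6535, 1985, 1417, 1036, 651 and 15098. Requiring at least 1 on the log2 scale of each difference tested (for the sets beyond both ends, the difference from each end as well as from their mean) gave 1226, 1802, 466, 315, 151, 89 and 8974. The embryo storage covariate gave 767, 739, 286, 148, 0, 0 and 2899, with standard errors widened as given in the report. A mean of at least 5 FPKM left 15971 genes, and 4021 were lower in the middle. The other counts under that filter, and all counts under the other alternatives, stayed within 1.5 times. Membership moved more than the counts. Of the genes above and below both ends, 1730 (87.2%) and 1063 (75%) were shared with quantile normalization, 1456 (73.4%) and 1196 (84.4%) with TPM rescaling, and 1633 (82.3%) and 1241 (87.6%) with median-ratio scaling, and the level sets shared less, as given in the report. Leaving out 1 library gave 5033 to 5951, 5956 to 6737, 1668 to 2221, 1190 to 1525, 857 to 1123, 552 to 715 and 14001 to 15345. Leaving out the 63 and 119 DAP libraries of high embryo sums, an alternative chosen after seeing the data, gave 5794, 6320, 2171, 1370, 1105, 614 and 15279.

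With a replicate block the counts were 5470, 6365, 1897, 1362, 1000, 626 and 14871. Of 30 pairs of libraries with the same number, 10 had deviations correlated above 0.1 (range -0.40 to 0.41). Pairs with different numbers were not compared, so these values cannot tell whether the numbers pair the libraries.

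Of 2408 values of 87 named genes under the alternatives, 21 changed sign. With the storage covariate these were JreChr03G12612 at -0.71, JreChr13G11197 at -0.89, JreChr03G12610 at -0.43, JreChr01G10577 at -2.93, JreChr01G12905 at -2.81, JreChr01G10579 at -1.17 and JreChr05G12222 at -1.67. The glutelins JreChr03G12612 and JreChr03G12610 are themselves part of the covariate. In the other direction were JreChr10G12032 at 0.13, JreChr16G10763 at 0.43, JreChr13G10666 at 0.33, JreChr02G10304 at 1.49, JreChr03G12442 at 0.90, JreChr11G10794 at 0.56, JreChr09G12363 at 0.89 and JreChr12G11604 at 0.50. Without the 91 DAP stage, JreChr01G10577 was at -0.19 and JreChr02G10304 at 0.45. Without the 119 DAP stage, JreChr01G10577 was at -0.63, JreChr01G12905 at -0.67 and JreChr11G10846 at -0.39. Without both libraries of high embryo sums, JreChr01G10577 was at -0.010. The cause of these changes was not tested. The unknown number of reads and the 3 pools per stage limit the precision for genes of low FPKM.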
